A study of Mus musculus with 12 samples.

Results

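The genes described here are 29 enzymes and regulators of cholesterol and fatty acid synthesis, chosen by symbol from textbook pathways, with no value in the rule but with earlier results of these data known. They are 29 of the 46517 gene identifiers in the count tables, and all 29 passed the filter on low counts that left 12522 genes. They fall into a sterol arm of 20 genes and a fatty acid arm of 9. RNA was sequenced from colonic intestinal epithelial cells of C57BL/6 mice aged 7 to 9 weeks, which were wild type (WT) or lacked both copies of Nfkb2 (Nfkb2-/-, here KO). Nfkb2 encodes p100, an NF-kB protein that is processed to p52. Mice of each genotype were left untreated or were given DSS (dextran sulfate sodium, a chemical irritant of the colon lining) over 48 h, with 3 biological replicates in each of the 4 groups. The labels name no Cre driver or floxed allele for the knockout, and the dose of DSS is not given in the sources used here. The cells were released from colon pieces with 30 mM EDTA, and by the labels about 90% of them were typically epithelial by flow cytometry.

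Cholesterol is built from acetyl-CoA through mevalonate, farnesyl diphosphate and squalene, after which lanosterol is trimmed to cholesterol by the sterol ring enzymes. Fatty acids are built from citrate-derived acetyl-CoA to palmitate, which is then elongated and desaturated. The SREBP transcription factors, held in the endoplasmic reticulum by INSIG proteins when sterols are plentiful, drive both arms: SREBP-2 (Srebf2) mainly the sterol genes and SREBP-1 (Srebf1) mainly the fatty acid genes. The colonic epithelium renews itself quickly and makes membrane sterols and lipids for its dividing and maturing cells.

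Promoters of 4 members that passed a test are printed here, because they hold or lack the letters that most sterol promoters share. SREBP sites often lie close to a CCAAT box, which binds NF-Y. RefSeq windows on GRCm38.p6, from 250 bases before to 50 bases after the start, were found for 22 of the 29 members and for 27025 genes in all. The letters CCAAT, searched on both strands, were in the windows of 15 of 16 sterol members (93.8%), 3 of 6 fatty acid members (50%) and 41.1% of all genes. The classical sterol element TCACNCCAC, also searched on both strands, was in 1 of the 16 sterol windows (Hmgcs1), in 0 of the 6 fatty acid windows and in 1.44% of all genes. The kappaB site, searched by its consensus on both strands, was in 3 of 16 sterol windows (Mvk, Pmvk and Ebp), 2 of 6 fatty acid windows (Srebf1 and Fads2) and 9.55% of all genes. A gene with several starts counted as a match if any of its windows held the letters. Below are the 250 bases before the start of the 3 sterol genes that passed a test and of Elovl6, the fatty acid gene with the largest called change, each on the plus strand. They are Hmgcs1 at chr13:119690101-119690350, Pmvk at chr3:89454291-89454540, Insig1 at chr5:28071162-28071411 and Elovl6 at chr3:129532136-129532385. Capitals mark the CCAAT box on either strand (ATTGG where it is on the other strand) and, in Hmgcs1, the sterol element. The marked matches do not overlap.
Hmgcs1: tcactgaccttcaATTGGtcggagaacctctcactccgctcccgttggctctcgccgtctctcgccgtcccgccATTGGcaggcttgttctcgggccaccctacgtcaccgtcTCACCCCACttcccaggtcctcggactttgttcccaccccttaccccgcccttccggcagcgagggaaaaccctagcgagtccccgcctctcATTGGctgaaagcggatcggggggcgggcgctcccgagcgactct
Pmvk: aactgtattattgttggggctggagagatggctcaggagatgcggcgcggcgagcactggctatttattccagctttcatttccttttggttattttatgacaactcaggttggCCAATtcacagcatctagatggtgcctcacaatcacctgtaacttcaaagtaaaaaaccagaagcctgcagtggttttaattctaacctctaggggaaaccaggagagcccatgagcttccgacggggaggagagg
Insig1: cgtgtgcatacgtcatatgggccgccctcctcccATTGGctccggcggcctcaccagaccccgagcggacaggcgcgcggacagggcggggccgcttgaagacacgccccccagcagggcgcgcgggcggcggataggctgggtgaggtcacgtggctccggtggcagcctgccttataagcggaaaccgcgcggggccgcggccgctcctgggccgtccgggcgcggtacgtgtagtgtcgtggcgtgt
Elovl6: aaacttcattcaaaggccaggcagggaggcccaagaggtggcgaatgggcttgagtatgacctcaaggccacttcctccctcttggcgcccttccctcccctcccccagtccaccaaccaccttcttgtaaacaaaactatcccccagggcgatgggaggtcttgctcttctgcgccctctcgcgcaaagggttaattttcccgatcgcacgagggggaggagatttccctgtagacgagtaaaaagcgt
Hmgcs1 carries 3 CCAAT boxes and 1 sterol element in this stretch, Pmvk and Insig1 carry 1 CCAAT box each, and Elovl6 carries none of these letters. A match is a run of letters only, and its absence says only that these letters are not in this window. Binding of any factor was not measured.

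Libraries held 5595909 to 8117740 counts, so that 3 counts, taken as the floor of detection, were 0.37 to 0.536 CPM (counts scaled to a common library size with TMM factors). Nfkb2 stood at 30.8 to 46.1 CPM in the 6 WT libraries and 11.7 to 19.6 in the 6 KO libraries, without overlap (log2 difference, KO minus WT, -1.33, two-sided exact permutation p = 0.002165, the smallest that 924 rearrangements allow). The epithelial markers (Epcam, Cdh1, keratins, Vil1, Cdx1 and Cdx2, 8 of 8 tested) summed to 21840 to 29150 CPM in untreated WT, 23270 to 24650 in WT under DSS, 22560 to 23660 in untreated KO and 20490 to 21790 in KO under DSS. Mature colonocyte markers (8 of 8 tested) summed to 20010 to 22880, 6977 to 7140, 11830 to 12680 and 6654 to 7357 CPM in the same order, and goblet markers (6 of 6) to 18480 to 29120, 14450 to 16850, 13040 to 14610 and 25790 to 29990. Proliferation markers (8 of 8) summed to 595 to 885, 516 to 552, 794 to 868 and 487 to 511 CPM. Leukocyte markers (9 of 12 tested) summed to 16.2 to 32.5, 56.6 to 59.7, 75.3 to 92.9 and 121 to 177.2 CPM. Adipocyte markers (1 of 6 tested) summed to 0.267 to 5.98 CPM, with Adipoq, Plin1, Fabp4, Lep and Retn at 0 in all 12 libraries, and stromal and endothelial markers (2 of 8 tested) to 0.154 to 7.43 CPM, with Lum and Pdgfra at 0 in all 12. In these bulk samples, fewer cells of a type and less RNA per cell cannot be told apart, and the part of these markers in the results was not tested except by scaling to the epithelial markers. Library numbers run from WT to KO, so library order and genotype cannot be told apart. Replicate 3 of untreated WT differed from replicates 1 and 2 of its group, with 884.6 CPM of proliferation markers against 629.8 and 595. Values without it are given where it changes a call of a member, and for some arm medians and other pathway genes. By TMM factor, however, replicates 1 and 2 stood apart (0.8875 and 0.9405, against 1.025 in replicate 3 and 1 to 1.043 in the other groups). Their mean log2 CPM of epithelial markers, 10.47 and 10.51, was also above that of replicate 3 (10.13) and of the other groups (10.08 to 10.35). Leaving out replicate 3 keeps these 2 libraries.

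The 20 sterol members were lower in KO than in WT as a group, and the offset was small. Their mean log2 CPM was 7.38, 7.20 and 7.13 in untreated WT, 7.26, 7.25 and 7.25 in WT under DSS, 7.01, 7.07 and 7.02 in untreated KO, and 6.92, 7.02 and 6.93 in KO under DSS. All 6 WT libraries were above all 6 KO libraries on this mean, also by library totals (-0.01 or more against -0.03 or less, from the mean of the 12) and by DESeq2's size factors, but not when scaled to the epithelial markers, where WT ran from -0.20 to 0.27 and KO from -0.22 to 0.06. The fatty acid mean overlapped between genotypes in untreated mice and was higher in WT than in KO in all samples under DSS: it was 7.51, 7.39 and 7.72, then 7.62, 7.62 and 7.71, then 7.52, 7.39 and 7.33, then 7.54, 7.28 and 7.28 in the same order. Scaled to the epithelial markers, this mean overlapped under DSS too (0.20, 0.08 and 0.36 in WT and 0.09, -0.06 and -0.12 in KO, from the mean of the 12). The 5 elongation and desaturation genes of that arm had a mean of 7.59 to 7.81 in the 6 WT and 7.24 to 7.45 in the 6 KO libraries, without overlap, as for the sterol mean. Scaled to the epithelial markers these overlapped (-0.13 to 0.41 in WT and -0.30 to -0.02 in KO, from the mean of the 12), and by library totals the ranges met at -0.04. Sterol mean minus fatty acid mean, sample by sample, was -0.13, -0.20 and -0.59 in untreated WT, -0.36, -0.37 and -0.45 in WT under DSS, -0.51, -0.32 and -0.30 in untreated KO, and -0.61, -0.26 and -0.35 in KO under DSS. These 4 ranges overlap, and the overlap of untreated WT rests on its replicate 3. The other two replicates of untreated WT, at -0.13 and -0.20, lay above the 9 samples of the other groups (-0.61 to -0.26).

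**Figure D1:**
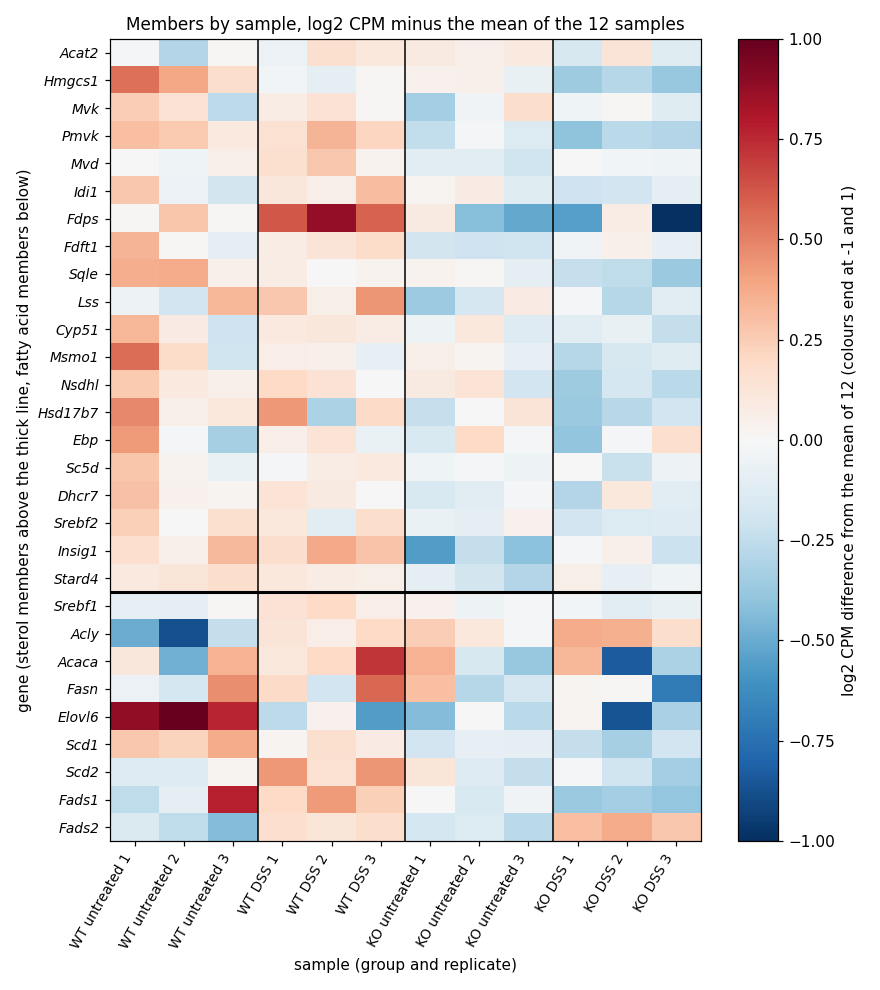
Heat map of the log2 CPM of each of the 29 members (rows, sterol above the thick line and fatty acid below) in each of the 12 samples (columns), minus the member's mean over the 12. Red is above and blue below that mean, and colours end at -1 and 1. The sterol rows are mostly red in WT and mostly blue in KO under DSS, while the fatty acid rows follow several different patterns, with Elovl6 high in untreated WT only.

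**Figure D2:**
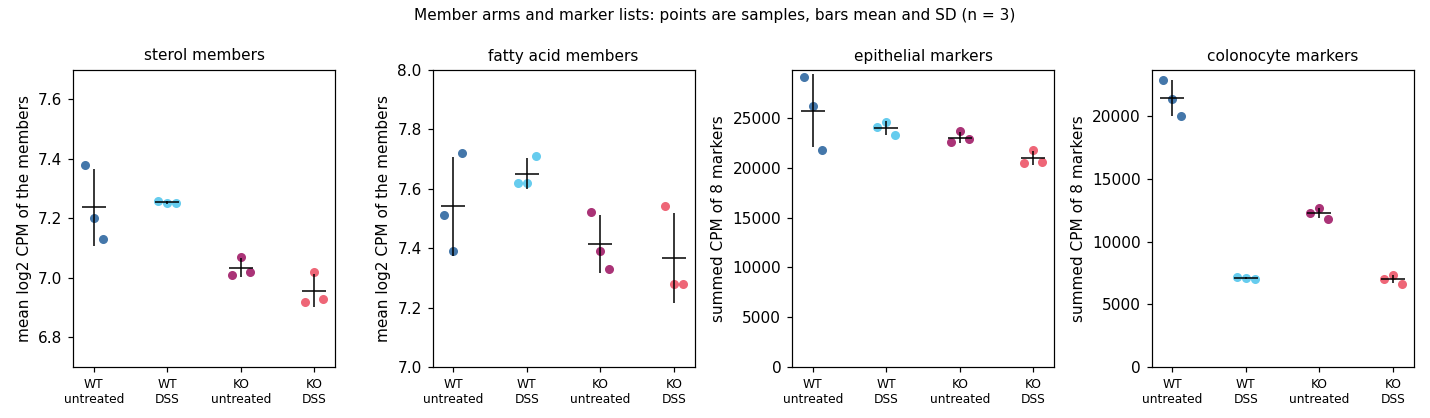
Mean log2 CPM of the sterol and fatty acid members and summed CPM of the epithelial and colonocyte markers, by group; points are samples, horizontal lines means and vertical lines SD (n = 3). The axes of the log2 panels do not start at 0. The sterol mean is 6.92 to 7.07 in the KO samples and 7.13 to 7.38 in the WT samples, and colonocyte markers are at 6654 to 7357 CPM in the 6 DSS samples.

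Per kilobase of merged exons, the levels of the members spanned a wide range. On that scale (RPKM, mean over the 12 samples), Scd2 was the highest at 276.6, followed by Hmgcs1 at 186.3, Acly at 175.1 and Fads2 at 174.8. The squalene and ring enzymes Fdft1, Msmo1, Cyp51 and Sqle stood between 62.8 and 76.2. The lowest were Acaca, the acetyl-CoA carboxylase that commits carbon to fatty acids, at 2.547 and Fdps, the farnesyl diphosphate synthase, at 2.537. Scd1, the stearoyl-CoA desaturase that dominates in many other tissues, stood at 19.7, far under its neighbour Scd2. Some of these levels are uncertain, because the 12 libraries were made without strand marks and some exons are shared or copied. Of the 50-base words in the transcripts, 39.1% of those of Acat2, 30.4% of Acaca, 26.5% of Fdft1, 26.2% of Fdps and 25.3% of Idi1 also occur in another gene, as do 11.6% for Hmgcs1, 4.56% for Scd1 and 3.97% for Scd2. Exons of Fdps, Fdft1 and Hmgcs1 overlap other annotated genes over 26.7%, 18.3% and 12.1% of their length, in Fdft1 the protein-coding gene Ctsb.

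Under DSS, KO stood below WT at every one of the 20 sterol members by fitted log2 fold change, with a median of -0.22 against 0.00 over all genes tested. For 15 of the 20 the 3 KO values lay wholly below the 3 WT values, where 10.6% of all genes tested did so, and for 0 of the 20 they lay wholly above (11.7% of all genes). The exceptions with overlapping groups were Acat2, Hsd17b7, Ebp, Sc5d and Dhcr7. Single genes rarely passed the test at this size of change: 1 sterol member (Pmvk, lower) and 1 fatty acid member (Scd2, lower) had an adjusted p under 0.05 in edgeR's quasi-likelihood test, against 3.11% of all genes in either direction, 1.34% lower and 1.77% higher. Of the 20 sterol members, 9 had an unadjusted p under 0.05 in that test, where 1829 of the 12522 genes tested did so. By role, the median was -0.30 over the 7 mevalonate genes, -0.32 over the 3 squalene genes, -0.20 over the 7 ring genes and -0.21 over Srebf2, Insig1 and Stard4. The fatty acid arm had a median of -0.34, with 7 of 9 negative and Acly and Fads2 positive, and 4 of 9 wholly below WT. All 20 sterol members also stood lower in KO, and 15 without overlap, when libraries were scaled by library totals or by DESeq2's size factors. Under DSS, 3 of the 8 epithelial markers were higher and 5 lower in KO, and 1 passed (Vil1, lower). Scaled to the mean log2 level of these markers, all 20 stood lower with a median of -0.18, 8 of 20 (40%) without overlap, where 7.635% of all genes did so, and no member passed the test.

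In untreated mice 19 of the 20 sterol members were lower in KO by fitted log2 fold change, with a median of -0.20 against 0.00 over all genes, and Acat2 was the exception at 0.17. The groups did not overlap for 8 of them in the lower direction, where 9.52% of all genes did so, and for Acat2 in the higher direction (9.81% of all genes). Hmgcs1 and Insig1 were lower, Elovl6 and Scd1 were lower and Acly was higher past the threshold, which is 2 of 20 sterol and 3 of 9 fatty acid members against 3.48% of all genes in either direction (1.76% lower and 1.72% higher). The fatty acid median was -0.07. It was 0.04 by library totals and 0.02 by epithelial markers, where the median of all genes was itself 0.10 in both. In untreated KO, 15 of 20 sterol members were lower by library totals (median -0.08, where the median of all genes was 0.10). Scaled to the epithelial markers, 14 of 20 were lower (median -0.08, with all genes at 0.10). The sterol median thus lay below that of all genes by each scaling. Fewer sterol members were lower without overlap, 5 of 20 by library totals and 2 of 20 by epithelial markers (6.285% and 4.839% of all genes). Without replicate 3 of untreated WT the sterol median was -0.25 and the fatty acid median 0.08, and Hmgcs1, Fdft1, Sqle and Insig1 were lower past the threshold. That fit called 725 of all genes, against 436 in the fit of all 12 samples.

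**Figure D3:**
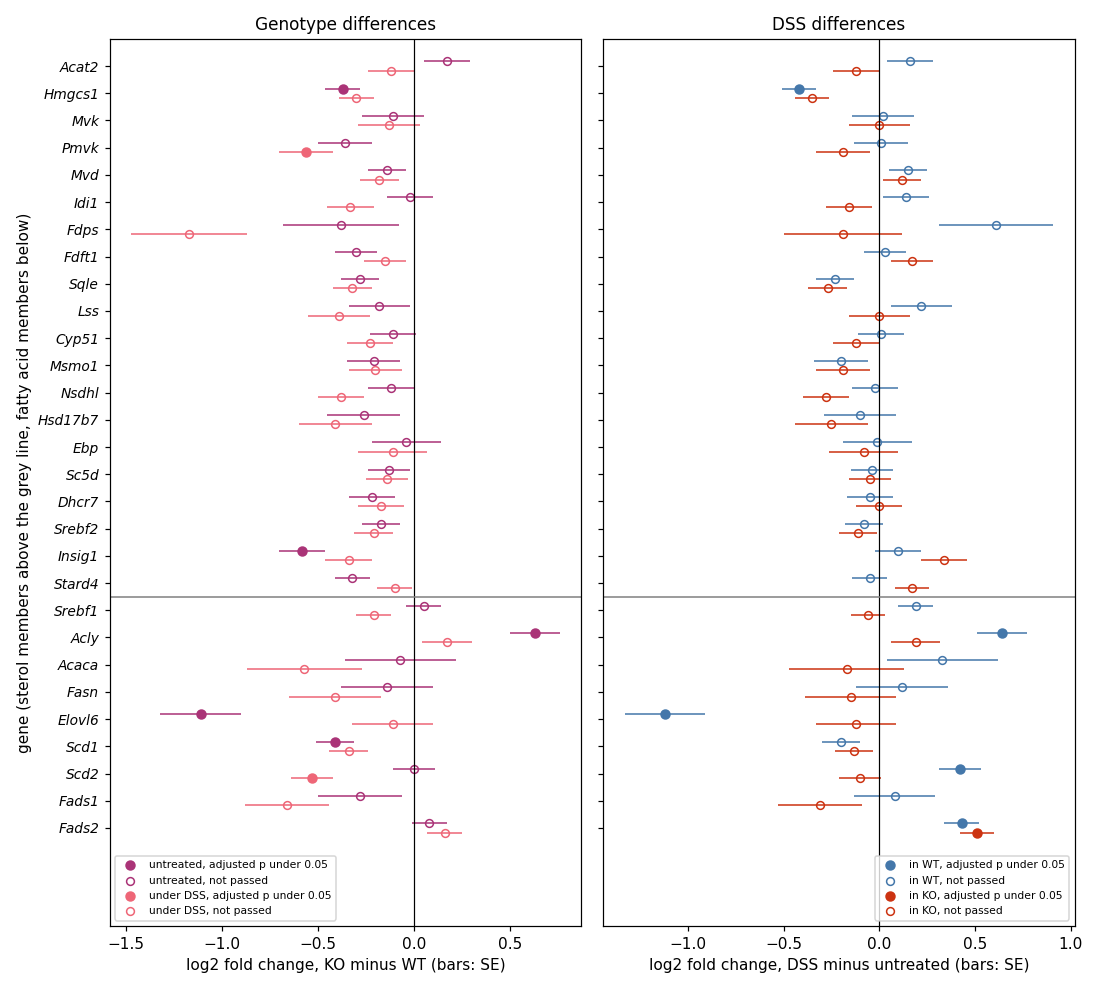
Log2 fold change of each member with its standard error (bars), for KO minus WT on the left and DSS minus untreated on the right; filled points passed an adjusted p of 0.05 in edgeR. On the left nearly all sterol points lie below 0 in both conditions, and on the right they lie on both sides of 0.

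Under DSS in WT, 1 of the 20 sterol genes passed the threshold. Of the 20, 10 had a positive and 10 a negative fitted fold change, the median was -0.00, and Hmgcs1 was lower past the threshold. The fatty acid arm held 4 of the 5 members that passed in WT: Acly, Scd2 and Fads2 rose and Elovl6 fell, against 6.30% of all genes called in either direction (2.80% higher and 3.50% lower), and its median was 0.19 with 7 of 9 positive. Without replicate 3 of untreated WT the medians for DSS in WT were -0.07 (sterol) and 0.35 (fatty acid). The groups did not overlap for 1 sterol and 4 fatty acid members in the higher direction (10.7% of all genes) and for 1 and 2 in the lower direction (9.96%). With DSS, the 8 mature colonocyte markers were lower by group mean, with median log2 values of -2.22 (WT) and -1.52 (KO), and their part in the members' changes was not tested. The sign of the sterol median in WT depended on scaling, since 17 of 20 were higher by library totals and 18 of 20 by epithelial markers, where the median of all genes was itself 0.10 and 0.18. In KO, DSS raised Fads2, and no other member passed (1 of 29, against 3.92% of all genes in either direction, 1.88% higher and 2.04% lower). The groups did not overlap, in either direction, for 9 of the 20 sterol and 3 of the 9 fatty acid members, where 24.3% of all genes did so. There the sterol median was -0.12 with 14 of 20 negative. Of these 20 genes, 4 had an unadjusted p under 0.05 in KO (1987 of the 12522 genes tested), and DESeq2 called 1, Hmgcs1 (800 of all genes). The fatty acid median in KO was -0.12 with 7 of 9 negative. Scaled to the epithelial markers, these medians were -0.00 and -0.02, where the median of all genes was itself 0.12. The DSS response did not differ between genotypes past the threshold at any member (1.70% of all genes passed, 1.17% higher and 0.527% lower). For the sterol arm 0 of 20 also had an unadjusted p under 0.05 and DESeq2 called 0, against 1328 and 368 of the 12522 genes tested. In the fatty acid arm, 3 of 9 had an unadjusted p under 0.05 and DESeq2 called Elovl6 (log2 difference 1.01, adjusted p = 0.042). WT under DSS and untreated KO are both compared with the same 3 untreated WT libraries, so values of those comparisons that look alike are given side by side and not as agreement.

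**Figure D4:**
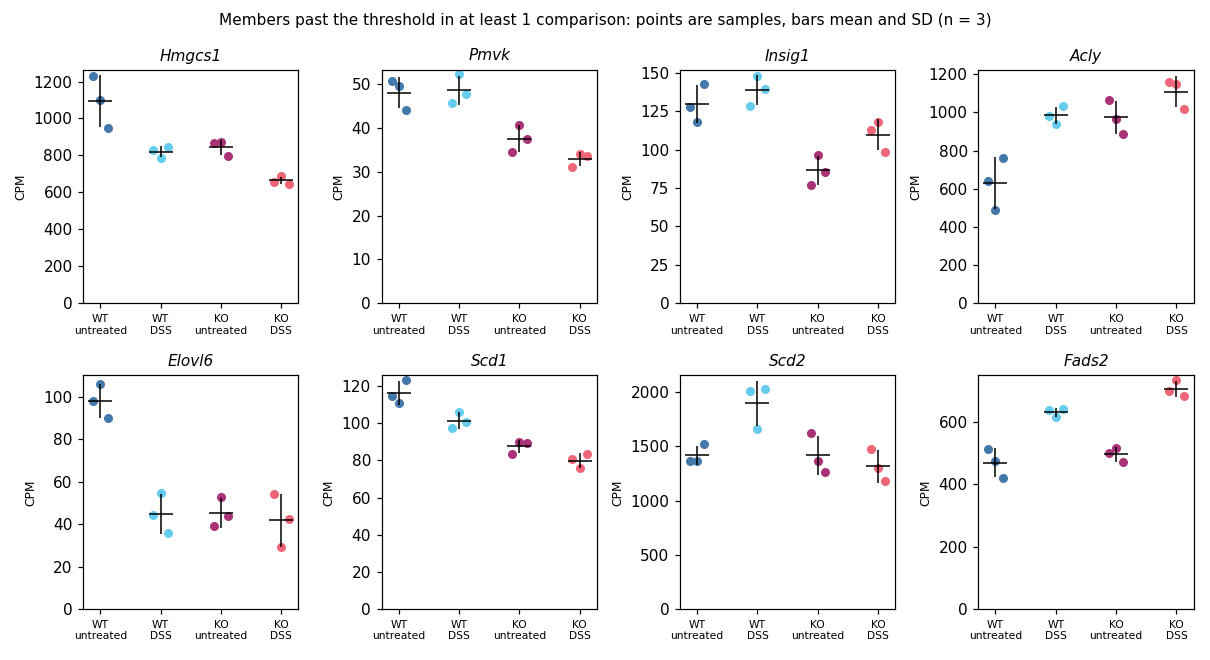
CPM of the 8 members that passed the threshold in at least 1 comparison, by group; points are samples, horizontal lines means and vertical lines SD (n = 3), and every axis starts at 0. Hmgcs1 steps down with both KO and DSS, Elovl6 is at 90.1 to 106.3 CPM in untreated WT and at 29.1 to 54.8 in the other 9 samples, and Fads2 is higher under DSS in both genotypes.

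Among the mevalonate enzymes, Hmgcs1 changed most clearly. It encodes the cytosolic HMG-CoA synthase, which feeds the mevalonate route, and occupies bases 119690379 to 119708260 of chromosome 13, plus strand (GRCm38, GENCODE M21). Its level was 1231, 1101 and 951 CPM in untreated WT, 827, 787 and 846 in WT under DSS, 867, 870.3 and 798 in untreated KO, and 657, 689 and 648 in KO under DSS. Untreated WT was wholly above the other groups and KO under DSS wholly below them, while the groups WT under DSS and untreated KO overlapped. Hmgcs1 fell under DSS in WT by 0.42 ± 0.09 on the log2 scale (SE, n = 3 per group, edgeR adjusted p = 0.01483) and was -0.37 ± 0.09 in untreated KO against WT (edgeR adjusted p = 0.04345). The DSS difference in KO was -0.35 ± 0.09 (edgeR adjusted p = 0.05712) and the KO difference under DSS was -0.30 ± 0.09 (edgeR adjusted p = 0.1115), neither past the threshold. Untreated WT is in neither comparison and enters them only through the joint fit. Without its replicate 3 both passed (-0.35 and -0.30, edgeR adjusted p = 0.008618 and 0.02296). Both also passed without its replicate 1 (edgeR adjusted p = 0.02041 and 0.04691), but without no other single library. With only the 6 samples compared both passed too (edgeR adjusted p = 0.01829 and 0.02214). The difference between the DSS responses was 0.07 ± 0.13 (edgeR adjusted p = 0.9415). The WT call was lost without replicate 1 or 2 of WT under DSS (adjusted p = 0.05891 and 0.07618). The untreated genotype call rested on the set of libraries: it held only when replicate 3 of untreated WT was left out (-0.46, adjusted p = 0.00316) and was lost without any other single library, with adjusted p from 0.06082 to 0.1912. Scaled to the epithelial markers, the WT value was -0.21 (adjusted p = 0.3631) and the untreated genotype value -0.24 (adjusted p = 0.4093).

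Pmvk, the phosphomevalonate kinase (chromosome 3, 89454541 to 89469013, plus strand), was the sterol gene called between genotypes under DSS. It stood at 50.7, 49.5 and 44.0 CPM in untreated WT, 45.7, 52.3 and 47.8 in WT under DSS, 34.6, 40.8 and 37.4 in untreated KO, and 31.1, 34.1 and 33.5 in KO under DSS. Both KO groups lay wholly below both WT groups. The KO difference was -0.56 ± 0.14 under DSS (SE, edgeR adjusted p = 0.0435) and -0.36 ± 0.14 untreated (edgeR adjusted p = 0.2089), and the DSS difference was 0.01 ± 0.14 in WT and -0.19 ± 0.14 in KO (edgeR adjusted p = 0.9803 and 0.5764). The call under DSS stood close to the threshold. It held without replicate 1 or 3 of untreated WT (adjusted p = 0.04515 and 0.02892) and was lost without any other single library, with adjusted p from 0.05483 to 0.1598. Fdps was just outside the threshold in the same comparison: it stood at 15.5, 18.5 and 15.2 CPM in WT under DSS and 6.72, 10.5 and 4.57 in KO under DSS, a log2 difference of -1.17 ± 0.30 (edgeR adjusted p = 0.05122). Its groups did not overlap, but this is the lowest of the sterol genes by level, and 26.2% of its 50-base words occur in other genes. The Fdps difference passed without replicate 3 of untreated WT (-1.17, edgeR adjusted p = 0.04491). It also passed without replicate 2 of KO under DSS (-1.56, edgeR adjusted p = 0.02307). The other mevalonate genes, Acat2, Mvk, Mvd and Idi1, had group means within 0.32 log2 units of each other and passed no test.

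Of the squalene genes, Sqle, the squalene epoxidase and a control point of the pathway, was likewise highest in untreated WT and lowest in KO under DSS by group mean, without passing a test. It stood at 442, 447 and 357 CPM in untreated WT, 363, 346 and 352 in WT under DSS, 354, 347 and 323 in untreated KO, and 294, 289 and 267 in KO under DSS. KO under DSS lay below the 3 other groups. Its log2 differences were -0.32 ± 0.10 for KO under DSS (edgeR adjusted p = 0.1103), -0.28 ± 0.10 for untreated KO (edgeR adjusted p = 0.1546), -0.23 ± 0.10 for DSS in WT and -0.27 ± 0.10 for DSS in KO (edgeR adjusted p = 0.2366 and 0.1833). Without replicate 3 of untreated WT it was lower past the threshold in KO under DSS (adjusted p = 0.02607), in untreated KO (adjusted p = 0.0165) and under DSS in WT (adjusted p = 0.02667). The KO difference under DSS does not use untreated WT samples, and it also passed with only the 6 samples compared (adjusted p = 0.03689). Fdft1, the squalene synthase, stood at 302 to 405 CPM in untreated WT and 278 to 282 in untreated KO, and Lss, the lanosterol synthase, stood at 103 to 135 CPM in WT under DSS and 81.4 to 98.5 in KO under DSS. Both pairs of groups were separate, and neither difference passed the test (edgeR adjusted p = 0.1695 for Fdft1 and 0.2548 for Lss). Reads of Fdft1 and Ctsb cannot be told apart where their exons overlap. The 7 ring enzymes (Cyp51, Msmo1, Nsdhl, Hsd17b7, Ebp, Sc5d and Dhcr7) passed no test in any comparison. Their group means lay within 0.12 (Ebp) to 0.50 (Hsd17b7) log2 units of each other. Nsdhl, which acts in the removal of methyl groups from the sterol ring, stood at 87.2, 98.8 and 92.7 CPM in KO under DSS against 128, 124 and 112 in WT under DSS (log2 difference -0.38 ± 0.12, edgeR adjusted p = 0.1103).

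The regulators showed the clearest untreated difference at Insig1. Insig1, which retains the SREBP complex in the endoplasmic reticulum and is itself an SREBP target, occupies bases 28071363 to 28078662 of chromosome 5, plus strand. It stood at 128, 118 and 143 CPM in untreated WT, 129, 148 and 139 in WT under DSS, 77.3, 96.4 and 85.8 in untreated KO, and 113, 118 and 98.4 in KO under DSS. Untreated KO was wholly below the 3 other groups. The untreated KO difference was -0.58 ± 0.12 (SE, edgeR adjusted p = 0.01611). Under DSS the difference was -0.34 ± 0.12 (edgeR adjusted p = 0.1859) and the groups were separate, with 118 CPM as the highest KO value and 129 as the lowest WT value. The DSS difference of Insig1 was 0.34 ± 0.12 in KO (edgeR adjusted p = 0.161) and 0.10 ± 0.12 in WT (edgeR adjusted p = 0.7786), and the difference of these, 0.24 ± 0.17, did not pass (edgeR adjusted p = 0.7193). The untreated call was lost without replicate 1 or 3 of untreated KO (adjusted p = 0.08899 and 0.07855) and with library totals or epithelial markers as the scale (-0.48 in both, adjusted p = 0.05959 and 0.2222). Stard4, a cytosolic sterol carrier, was just outside the threshold there: 319.9, 325 and 339 CPM in untreated WT against 280.4, 262 and 244 in untreated KO, a difference of -0.32 ± 0.09 (edgeR adjusted p = 0.05797). It passed in edgeR with DESeq2's size factors (adjusted p = 0.04588) and in DESeq2 (adjusted p = 0.00512). Srebf2 stood at 244 to 287 CPM in untreated WT, 225 to 274 in WT under DSS, 229 to 250.5 in untreated KO and 213 to 223 in KO under DSS. Srebf1 stood at 138 to 148, 154 to 168, 142 to 152 and 136 to 144 in the same order. Neither passed in any comparison, and the counts do not separate their transcript forms or show SREBP processing.

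In the fatty acid arm, 1 of the 3 enzymes that make palmitate, Acly, passed a test, and differences between these enzymes were not tested. Acly, the ATP citrate lyase that supplies cytosolic acetyl-CoA to both arms (chromosome 11, 100476353 to 100528000, minus strand), was low in untreated WT and higher elsewhere. It stood at 639, 489.7 and 761 CPM in untreated WT, 981, 940.5 and 1032 in WT under DSS, 1065, 968 and 888 in untreated KO, and 1162, 1148 and 1016 in KO under DSS. Untreated WT lay wholly below the other groups, which overlapped among themselves. Acly rose under DSS in WT by 0.64 ± 0.13 (SE, edgeR adjusted p = 0.007325), in each of 12 fits that left out 1 library too. It was 0.63 ± 0.13 in untreated KO against WT (edgeR adjusted p = 0.01543), a call lost without replicate 1 of untreated KO (adjusted p = 0.07594). That call was also lost with only the 6 samples compared (adjusted p = 0.09602) and when scaled to the epithelial markers (adjusted p = 0.06538). DSS in KO gave 0.19 ± 0.13 (edgeR adjusted p = 0.5564) and the difference of responses was -0.46 ± 0.18 (edgeR adjusted p = 0.367). That difference passed without replicate 3 of untreated WT, at -0.62 (adjusted p = 0.04606). Acaca stood at 23.3 to 68.8 CPM and Fasn, the fatty acid synthase, at 109 to 264 over the 12 samples. Their replicates spread by up to 0.58 and 0.41 log2 units (SD), and neither passed in any comparison.

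Elovl6, which extends palmitate to stearate, gave the largest called change of the 29 genes. It occupies bases 129532355 to 129638495 of chromosome 3, plus strand. It stood at 98.2, 106.3 and 90.1 CPM in untreated WT, 44.2, 54.8 and 35.9 in WT under DSS, 39.3, 53.0 and 43.8 in untreated KO, and 54.1, 29.1 and 42.3 in KO under DSS. Untreated WT lay wholly above the other 9 samples, and the other 3 groups overlapped. Elovl6 fell under DSS in WT by 1.12 ± 0.21 on the log2 scale (SE, edgeR adjusted p = 0.004086), a level 0.459 times that of untreated WT. It was -1.11 ± 0.21 in untreated KO (edgeR adjusted p = 0.008222), lost only without replicate 1 of untreated KO among the 12 fits (adjusted p = 0.05411). In KO, DSS gave -0.12 ± 0.21 (edgeR adjusted p = 0.8615). The difference of responses, 1.00 ± 0.30, did not pass (edgeR adjusted p = 0.15), passed in DESeq2 as given above, passed with no filter on low counts, and passed without replicate 2 of KO under DSS (1.20, adjusted p = 0.04729). The sum of the mature colonocyte markers was also highest in untreated WT, at 20010 to 22880 CPM against 6654 to 12680 in the other groups. Of the 8 markers, 3 were higher and 5 lower in untreated KO by fitted log2 fold change (1 and 3 past the threshold). Those with a higher mean in untreated KO than in untreated WT were Car4, Aqp8 and Slc26a3. They stood at 889 against 555 CPM, 476 against 314 and 1154 against 1137, Car4 past the threshold. The part of the colonocyte markers in the Elovl6 difference was not tested.

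The desaturases did not move as a block. Scd2, a stearoyl-CoA desaturase that makes oleate (chromosome 19, 44293674 to 44306864, plus strand), was high only in WT under DSS. It stood at 1365, 1365 and 1518 CPM in untreated WT, 2010, 1658 and 2026 in WT under DSS, 1620, 1363 and 1263 in untreated KO, and 1477, 1296 and 1178 in KO under DSS. WT under DSS lay wholly above the 3 other groups, which overlapped. Scd2 rose under DSS in WT by 0.42 ± 0.11 (SE, edgeR adjusted p = 0.04069), changed by -0.10 ± 0.11 in KO without passing (edgeR adjusted p = 0.7492), and under DSS was -0.53 ± 0.11 in KO against WT (edgeR adjusted p = 0.02225). The difference of responses, -0.53 ± 0.16, did not pass (edgeR adjusted p = 0.1667) except with no filter on low counts (-0.54, adjusted p = 0.009736). The call in WT was lost without replicate 1 or 2 of untreated WT, 1 or 3 of WT under DSS, 2 of untreated KO or 2 of KO under DSS (adjusted p = 0.09889, 0.1103, 0.1631, 0.1614, 0.05489 and 0.05395). The call between genotypes was lost without replicate 1 or 3 of WT under DSS or 2 or 3 of KO under DSS (adjusted p = 0.1114, 0.1032, 0.08156 and 0.1051).

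Scd1, from the same family and 87591 bases from Scd2 (chromosome 19, 44394455 to 44407879, minus strand), followed genotype instead. It stood at 115, 111 and 123 CPM in untreated WT, 97.2, 106 and 101 in WT under DSS, 83.6, 90.1 and 89.1 in untreated KO, and 80.6, 75.8 and 83.3 in KO under DSS. Both KO groups lay below both WT groups. The untreated KO difference was -0.41 ± 0.10 (SE, edgeR adjusted p = 0.04349), and it was lost in all 12 fits that left out 1 library (adjusted p from 0.05712 to 0.1687). Under DSS it was -0.34 ± 0.10 (edgeR adjusted p = 0.101). Scd1 and Scd2 lie 1.9 and 2 Mb from Nfkb2, on the chromosome 19 that carries the targeted allele, so sequence carried along with that allele and loss of Nfkb2 cannot be told apart for them. Fads1 and Fads2, also on chromosome 19, lie 36.1 and 36.2 Mb away.

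Fads2, the delta-6 desaturase of polyunsaturated fatty acid synthesis (chromosome 19, 10062765 to 10101746, minus strand), was the member called in both genotypes under DSS. It stood at 514, 476 and 420 CPM in untreated WT, 638, 615 and 641 in WT under DSS, 502, 517 and 471 in untreated KO, and 699.9, 734 and 683 in KO under DSS. All 6 DSS samples lay above all 6 untreated samples. Fads2 rose by 0.43 ± 0.09 in WT (SE, edgeR adjusted p = 0.008606) and by 0.51 ± 0.09 in KO (edgeR adjusted p = 0.004765), and it passed in each of the 12 fits that left out 1 library in both genotypes. The WT call was lost with only the 6 samples compared (0.42 ± 0.11, edgeR adjusted p = 0.0705). The difference between the WT and KO responses was 0.08 ± 0.13 (edgeR adjusted p = 0.9243). Fads1, the delta-5 desaturase next to it on the chromosome, did not follow. It stood at 39.2, 43.6 and 80.0 CPM in untreated WT, 53.6, 62.7 and 55.3 in WT under DSS, 46.9, 41.9 and 45.5 in untreated KO, and 36.1, 36.8 and 35.6 in KO under DSS. KO under DSS lay below the 3 other groups, and the KO difference under DSS, -0.66 ± 0.22, did not pass (edgeR adjusted p = 0.1379). It passed without replicate 3 of untreated WT, the sample at 80.0 CPM, with the same difference and adjusted p = 0.009606. That sample is not in the comparison and enters it only through the joint fit. With only the 6 samples compared the difference passed too (-0.67, edgeR adjusted p = 0.02214).

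Of 42 other genes of the pathways, 41 were tested. By edgeR, 4 of the 41 passed for DSS in WT (6.30% of all genes) and 4 for untreated KO against WT (3.48%). For KO against WT under DSS 1 passed (3.11%), for DSS in KO 0 (3.92%) and for the difference of responses 1 (1.70%). The 4 genes of SREBP processing (Scap, Insig2, Mbtps1 and Mbtps2) passed in 0 of the 5 comparisons by edgeR or by DESeq2, and 0 of them had an unadjusted p under 0.05. Of 14 further synthesis enzymes 1 passed, Me1, the cytosolic malic enzyme that supplies NADPH for synthesis. It stood at 33.2, 36.9 and 24.7 CPM in untreated WT, 11.1, 10.5 and 12.4 in WT under DSS, 9.69, 7.81 and 16.5 in untreated KO, and 11.7, 8.9 and 9.7 in KO under DSS, so that untreated WT was wholly above the other groups, as for Elovl6. Me1 fell under DSS in WT by 1.48 ± 0.27 (SE, edgeR adjusted p = 0.003337) and was -1.48 ± 0.27 in untreated KO (edgeR adjusted p = 0.006453).

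Among 10 genes of sterol export, storage and LXR response, Abcg5, a subunit of the sterol exporter of the apical membrane, passed in 2 comparisons and the others in none. It stood at 8.16, 14.9 and 9.43 CPM in untreated WT, 43.3, 43.7 and 35.7 in WT under DSS, 8.35, 8.54 and 7.01 in untreated KO, and 14.5, 8.45 and 15.5 in KO under DSS. WT under DSS was wholly above every other sample. Abcg5 rose under DSS in WT by 1.92 ± 0.27 (SE, edgeR adjusted p = 0.0003728) and under DSS was -1.67 ± 0.27 in KO against WT (edgeR adjusted p = 0.002839), while DSS in KO gave 0.69 ± 0.27 (edgeR adjusted p = 0.2201) and the difference of responses, -1.23 ± 0.38, did not pass (edgeR adjusted p = 0.1672). Of 6 uptake and trafficking genes tested 1 passed, Npc2, a lysosomal cholesterol carrier, which fell under DSS in WT by 0.85 ± 0.13 (edgeR adjusted p = 0.0006704). It was also -0.62 ± 0.13 in untreated KO (edgeR adjusted p = 0.01457, lost without replicate 1 of untreated WT and replicates 1 and 3 of untreated KO at 0.05428, 0.08029 and 0.0644). Its KO difference under DSS did not pass in the main fit. It passed without replicate 1 or 3 of untreated WT (0.49 in both, edgeR adjusted p = 0.02738 and 0.01502). Of 7 glycerolipid genes, Agpat2, which makes phosphatidic acid, fell under DSS in WT by 0.89 ± 0.17 (edgeR adjusted p = 0.003651). In untreated KO, Agpat2 was -0.68 ± 0.16 (edgeR adjusted p = 0.03457) and Lpin2, a phosphatidate phosphatase, was -0.75 ± 0.17 (edgeR adjusted p = 0.02724). Both of these untreated calls were lost without any single one of several libraries, with adjusted p up to 0.1512 for Agpat2 and 0.1131 for Lpin2. The difference of responses of Agpat2 did not pass in the main fit. It passed without replicate 3 of untreated WT (0.94, edgeR adjusted p = 0.009597). In KO under DSS against untreated KO, 0 of the 41 passed in edgeR (3.92% of all genes). Of the 41, 5 had an unadjusted p under 0.05 there (1987 of the 12522 genes tested), and DESeq2 called 1 (800 of all genes).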

How the data were processed

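RNA was measured in 12 libraries, 3 each of 4 groups. The authors deposited whole-number counts of reads per gene, not normalized as far as the values show; STAR 2.5.2b, featureCounts 1.5.0 and GRCm38 or mm10 are named, without role or order, per the submitters' processing notes. Libraries were made from 2 ng of RNA by SMART-seq2, which marks neither strand nor molecule, so counting intervals cover counting error only, per the labels' protocols. RNA integrity numbers were 7.2 to 9.2 (median 8.8). ERCC spike-in was added per the labels, and 0 ERCC rows were among the values analysed here.

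Identifiers were matched without version to GENCODE M21 (GRCm38), 46005 of 46517. Genes were filtered by filterByExpr (12522 kept, 99.8% of counts), scaled by TMM and fitted with edgeR 4.0.16 in R 4.3.3, 1 coefficient per group over all 12 samples. Each contrast was put to its two-sided quasi-likelihood test, with Benjamini-Hochberg adjustment over all genes tested and a threshold of 0.05. Adjusted p values are from this test unless DESeq2 (1.42.0) is named. The SE given with an edgeR value is its log2 fold change, without sign, divided by the square root of the test's F statistic. It rests on the spread estimated in the whole fit and is not the spread within the groups compared. The common biological coefficient of variation was 0.227. Log2 CPM used a prior count of 2. The procedure was tested on simulated counts. Replicate pairs differed by a chi-square of 6.86 to 29.5 per degree of freedom, so each library counted once. The members and all lists were chosen with earlier results of these data known. Members that passed in at least 1 of 5 contrasts are given in full, the others by level and range, and Fdps, Sqle, Nsdhl, Stard4, Fads1 and the values of a few others were singled out after their values were seen.

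Titles number the replicates 1 to 3 in each group. Deviations of same-numbered samples correlated by 0.20, 0.11 and 0.13 for DSS in KO and by 0.01, 0.12 and 0.13 for DSS in WT. Neither the numbers nor these values settle whether samples were paired, and the main fit has no term for pairs. The fit with the replicate block changed no call of a member for DSS in KO or DSS in WT, and its changes between genotypes are given below. Alternatives were DESeq2 size factors, no filter, DESeq2, the replicate block, only the 6 samples compared, and leaving out each library. Scaling by library totals and by the 8 epithelial markers was added after the data were seen.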

Additional observations from a re-analysis of the deposited data

Results flagged for a closer look

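Npc2, which encodes a lysosomal cholesterol carrier, responded to DSS differently in the genotypes by the test of the difference itself. It stood at 502, 421 and 351 CPM in untreated WT, 221, 250.3 and 233 in WT under DSS, 252, 299.9 and 277 in untreated KO, and 294, 353 and 344 in KO under DSS. The DSS change was -0.85 ± 0.13 in WT and 0.26 ± 0.13 in KO (log2, SE, edgeR adjusted p = 0.0006704 and 0.3514). The difference, KO change minus WT change, was 1.11 ± 0.18 (edgeR adjusted p = 0.004173), and it stayed between 0.97 and 1.23 with an adjusted p of at most 0.02116 in all alternatives run. In WT the summed goblet cell markers ranged over 18480 to 29120 CPM untreated and 14450 to 16850 under DSS. Of the 6 markers 1, Clca1, was lower past the threshold in WT (-1.05, edgeR adjusted p = 0.0006163), and 3 had a positive and 3 a negative fitted change. In KO the sum ranged over 13040 to 14610 untreated and 25790 to 29990 under DSS. There Muc2, Clca1 and Fcgbp were higher past the threshold (0.70, 1.29 and 0.94). Their part in the Npc2 difference was not tested.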

How the results depend on the processing

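In the comparisons where it passed in the main fit, no named member or other pathway gene reversed sign in any alternative run. The counts past the threshold are small, so that 1 or 2 genes near it move them. With only the 6 samples compared, DSS in WT gave 0 sterol and 2 fatty acid members (1 and 4 in the fit of all 12), DSS in KO 1 sterol member (0), untreated KO against WT 0 sterol and 1 fatty acid (2 and 3), and KO against WT under DSS 2 and 2 (1 and 1). The members that still passed there were Acly and Elovl6 for DSS in WT and Elovl6 for untreated KO against WT. DESeq2 gave 1 sterol member for DSS in KO, 3 sterol for untreated KO (2 in edgeR), 3 sterol and 2 fatty acid for KO under DSS, and 1 fatty acid for the difference of responses (0 in edgeR). With no filter, DSS in KO gave 1 sterol, KO under DSS 2 fatty acid, and the difference of responses 2 fatty acid members (356 of all genes, against 213 with the filter). For KO under DSS the sterol count stayed 1 there, but the gene was Fdps (adjusted p = 0.02192) and not Pmvk (0.1388). DESeq2 size factors gave 3 sterol members for untreated KO and 2 for KO under DSS. The scalings added after the data were seen moved counts too: library totals gave 1 sterol member for DSS in KO, 1 for untreated KO and 4 for KO under DSS. Scaling to epithelial markers gave 0 sterol members for DSS in WT, 0 sterol and 1 fatty acid for untreated KO, and 0 and 0 for KO under DSS (Pmvk at -0.52 with an adjusted p of 0.1809, Scd2 at -0.50 with 0.1661). Calls over all genes moved too. For DSS in WT, DSS in KO, untreated KO and KO under DSS they were 789, 491, 436 and 390 in the main fit. They were 467, 599, 195 and 540 with only the 6 samples, and 1057, 800, 790 and 662 in DESeq2. With no filter they were 1017, 776, 703 and 642, and with DESeq2 size factors 788, 493, 462 and 394. Library totals gave 882, 547, 509 and 450, and epithelial markers 692, 301, 297 and 237. The cause of these changes was not tested.

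Leaving out 1 library gave, for sterol members, 0 to 2 for DSS in WT, 0 to 1 for DSS in KO, 0 to 4 for untreated KO, 0 to 4 for KO under DSS and 0 to 0 for the difference of responses. For fatty acid members it gave 3 to 4, 1 to 1, 0 to 2, 0 to 2 and 0 to 1 in the same order. Each count of 4 sterol members came without replicate 3 of untreated WT. Calls over all genes rose in the same fit, from 436 to 725 for untreated KO and from 390 to 566 for KO under DSS. The fatty acid count for untreated KO was 0 without replicate 1 of untreated KO, and the sterol count there was 0 without replicate 1 or 3 of that group.

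The fit with the replicate block gave 1 sterol member for untreated KO (Insig1, with Hmgcs1 at an adjusted p of 0.05768) and 0 for KO under DSS (Pmvk at 0.0657). Scd1 in untreated KO was at 0.07173. In the genotype comparisons the samples share only a number (same-number correlations -0.18 to -0.01). Depth limits Fdps most, at 33 to 139 counts per library. A change that missed the threshold is not shown to be absent.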
